A study of Mus musculus with 4 samples.

Results

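The sarcomeric myosin heavy chains are the motor proteins of the thick filament in striated muscle. They were followed here on arrays of mouse soleus, a calf muscle of mixed slow and fast fibres, from wildtype mice and from HSL-null mice, which lack hormone-sensitive lipase, the product of Lipe. Members were the probe sets whose platform annotation gave a single gene symbol from the set Myh1, Myh2, Myh3, Myh4, Myh6, Myh7, Myh8 and Myh13. This rule found 10 probe sets for 7 genes, of 10833 probe sets for 8251 genes with a single symbol, and it found none for Myh13. A probe set is a group of short oligonucleotides that together give 1 intensity for a transcript. Each genotype was represented by RNA of soleus pooled from 5 female mice aged 6 months, and each pool was measured as technical duplicates on 2 arrays. The labels give no strain and do not say how Lipe was disrupted. With 1 pool per genotype there is no replicate check across animals and no test across animals was made, and errors below describe the spread of 2 arrays of the same pool. In whole muscle, fewer fibres of a type and less RNA per fibre cannot be told apart.

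Each myosin molecule holds 2 heavy chains, whose heads bind actin and split ATP and whose rods form the thick filament, and the heavy chain isoform sets how fast a fibre shortens. Adult limb muscle of the mouse uses a slow isoform, encoded by Myh7, and fast isoforms encoded by Myh2 (type IIa), Myh1 (type IIx) and Myh4 (type IIb), of which Myh4 marks the fastest and most glycolytic fibres. Myh3 and Myh8 encode the embryonic and perinatal isoforms, and Myh6 encodes the alpha isoform, best known from the heart. Slow and type IIa fibres prevail in mouse soleus. In the RefSeq gene order (assembly GRCm38.p6), Myh3, Myh2, Myh1, Myh4, Myh8 and Myh13 follow one another on chromosome 11, and Myh6 and Myh7 lie side by side on chromosome 14.

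Myh4 was the one sarcomeric heavy chain above the filter described below that was called different between the pools by a 1.5-fold rule. It was 6.61-fold higher in HSL-null on its bright probe set, while its neighbour Myh1 and the slow Myh7 differed by less than the SE of their duplicates. The sequences just before their start sites are therefore shown for these 3 genes. They are the 250 bases before the annotated transcription start, read 5′ to 3′ on the strand of the gene from RefSeq (GRCm38.p6). Capitals mark matches, on either strand, to the TATA box (TATAAA), the E-box (CANNTG), the MEF2 site and the 14-base stretch TTCTAATTATATCC.
Myh4, chr11:67237562-67237811, plus strand: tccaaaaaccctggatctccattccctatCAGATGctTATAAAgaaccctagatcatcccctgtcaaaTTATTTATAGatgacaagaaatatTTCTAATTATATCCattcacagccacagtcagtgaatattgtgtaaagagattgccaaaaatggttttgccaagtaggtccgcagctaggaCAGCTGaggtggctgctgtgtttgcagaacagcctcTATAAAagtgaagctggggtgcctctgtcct
Myh1, chr11:67199852-67200101, plus strand: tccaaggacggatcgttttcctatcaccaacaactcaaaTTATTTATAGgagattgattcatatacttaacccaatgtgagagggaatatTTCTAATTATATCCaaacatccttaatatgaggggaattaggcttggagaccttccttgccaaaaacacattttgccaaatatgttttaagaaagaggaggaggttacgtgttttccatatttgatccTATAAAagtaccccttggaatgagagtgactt
Myh7, chr14:54994550-54994799, minus strand, the first of 2 annotated starts by coordinate: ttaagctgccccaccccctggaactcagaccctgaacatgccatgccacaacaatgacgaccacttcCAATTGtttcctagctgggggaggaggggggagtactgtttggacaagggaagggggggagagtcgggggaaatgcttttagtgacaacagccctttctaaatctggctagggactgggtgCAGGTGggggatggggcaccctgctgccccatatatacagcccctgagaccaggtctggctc
The E-box is the letter pattern of MyoD-family factors, and the MEF2 site that of MEF2 factors. Both families are known for regulating muscle genes.

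The window of Myh4 shared longer runs with those of its fast neighbours than with that of Myh7. The longest run shared by Myh4 and Myh1 was 20 bases, and that of Myh4 and Myh2 was 21 bases, against 8 bases between Myh4 and Myh7. The stretch TTCTAATTATATCC is the longest run common to the windows of Myh1, Myh2, Myh4 and Myh8, a set picked after the sequences were read. It occurred before 4 of 32544 start sites of all genes in the table (0.0123%). Those 4 were the start sites of Myh1, Myh2, Myh4 and Myh8. It began 158 bases before the start in Myh4, 160 in Myh1, 125 in Myh2 and 54 in Myh8. A MEF2 match lay upstream of that stretch in Myh4, Myh1 and Myh8 and was found in 2.89% of all windows. In each of the 3 a TATAAA match lay inside the MEF2 match, so that these overlap. A TATAAA match began 31 bases before the start in Myh4 and 32 in Myh1, and 12.3% of all windows held one. Myh4 had 2 E-boxes, at 221 and 67 bases before the start, Myh1 had 0, and 66.2% of all windows held at least 1. Myh4 also had a CArG box, the pattern of serum response factor, which 1.48% of all windows held and which no other member had in its window. A match of letters is a description of the window and says nothing of binding in these muscles.

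**Figure D1:**
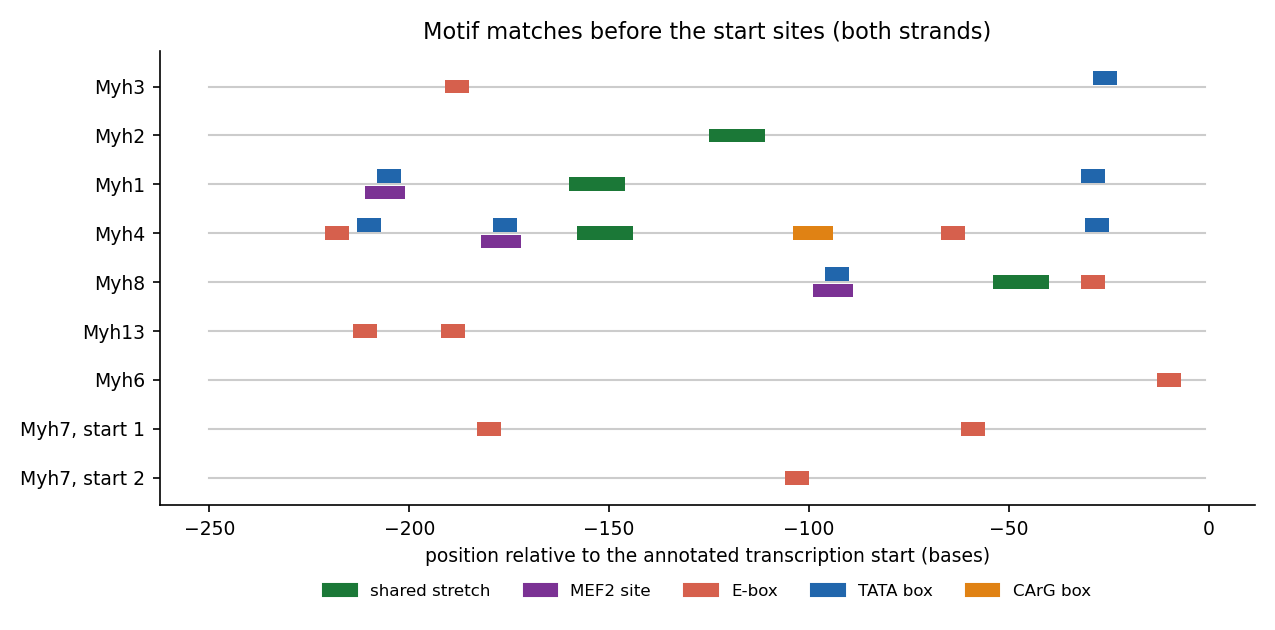
Positions of motif matches, on both strands, in the 250 bases before each annotated start of the 8 sarcomeric heavy chain genes (x axis, bases relative to the start; 2 starts for Myh7). The shared stretch is seen in Myh1, Myh2, Myh4 and Myh8 alone among these windows, and the CArG box in Myh4 alone.

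The arrays themselves were closely alike. Per array, the mean intensity with 2% of values trimmed from each end was 100, and the highest intensity was 5646 to 6183. Over 6208 probe sets, whose values are not independent of one another, r was 0.987 and 0.988 for duplicates and 0.983 to 0.986 for arrays of different genotypes. The wildtype arrays read 71.4 and 70.2 for Lipe, against 16.2 and 19.4 for HSL-null, the direction the labels give. For beta-actin, the signal at the 3′ end over that at the 5′ end, a measure of RNA integrity, came to 0.688 and 0.706 in wildtype against 0.816 and 0.823 in HSL-null, and for Gapdh it came to 0.955 and 0.927 against 0.922 and 0.912. HSL-null array 2 was the highest of the 4 arrays on 12 of 12 probe sets of the Lys, Phe, Thr and Trp control transcripts, at a median of 1.92 times the mean of the other 3. Myh4, Actn3, Pvalb and Adipoq are also given without that array below. Markers of the labelled tissue were present: 12 of 12 slow fibre markers matched to a probe set were above the filter described next, as were 14 of 15 fast fibre markers.

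Of the 10 member probe sets, 7 for 5 genes had a mean intensity at or above the filter, which was the median of all probe set means (27.7). Below it were the single probe set of Myh2 and both of Myh8. The bright Myh4 probe set lay far above the filter in both genotypes, whereas the dim one passed through its HSL-null mean, its wildtype mean being 26.9. Each HSL-null array was set against each wildtype array, which gives 4 differences, and a probe set counted as separated if these shared a sign and none was under 1.5-fold. That rule picked 0.451% of all 6208 probe sets, 0.226% as higher in HSL-null and 0.226% as lower, and 1 of the 7 members, as higher. The arrays of the genotypes did not overlap for 1 member that was higher and 2 that were lower, against 19.5% and 21.1% of all probe sets. The median log2 difference of the 7 was 0.11, beside -0.0022 over all 6208. This median counts Myh4 and Myh7 by both of their probe sets, the dim Myh4 one included, so that it describes no shift of the family. By the brightest probe set of each gene the differences were 2.72 (Myh4), 0.11 (Myh1), 0.024 (Myh7), -0.20 (Myh6) and -0.34 (Myh3).

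**Figure D2:**
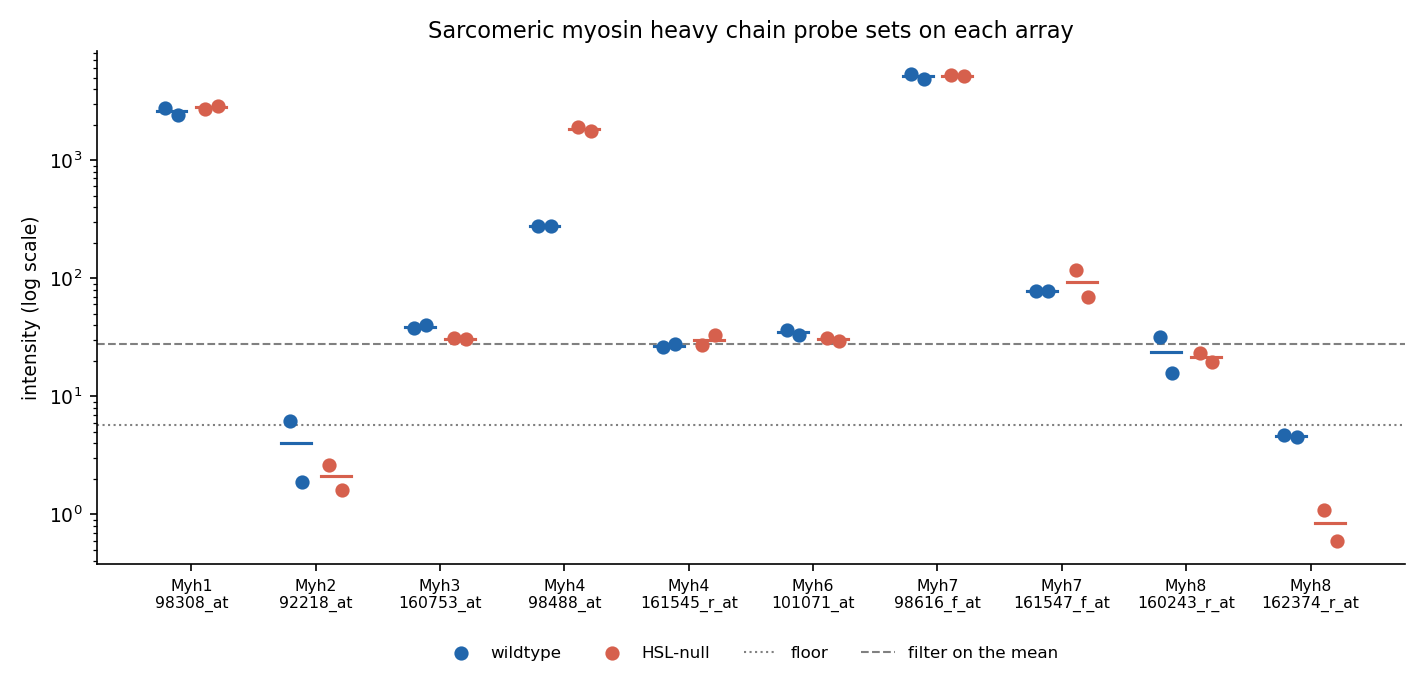
Intensity (y axis, log scale) of the 10 sarcomeric myosin heavy chain probe sets on each of the 4 arrays. Points are arrays, bars are means of 2 arrays, the dotted line is the floor of 5.70 and the dashed line the filter of 27.7. The Myh4 probe set 98488_at is the one whose genotypes stand far apart, and Myh2 lies at the bottom of the scale.

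Among the adult fast isoforms, Myh4 was separated and Myh1 was not. The Myh4 probe set 98488_at, which carries no suffix for shared or relaxed probes, measured 279 and 277 in wildtype, and 1897 and 1782 in HSL-null. The duplicates lay close together and the genotypes did not overlap. The wildtype mean was 278 ± 1.34 (SD, n = 2 arrays) and the HSL-null mean 1839 ± 81.7, a log2 difference of 2.72 ± 0.046 (SE of duplicates). The smallest of the 4 array differences was 6.38-fold. Its log2 difference was the largest of all 6208 probe sets in either direction. Among the 100 probe sets on either side of it in level, log2 differences between duplicates had an SD of 0.12 in wildtype and 0.10 in HSL-null. Without HSL-null array 2 the difference was 2.77, and it lay between 2.68 and 2.77 with any 1 array left out. Myh4 reached 4.59% and 4.91% of the highest intensity on the wildtype arrays and at most 30.7% in HSL-null, well below the top of the scale.

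A second Myh4 probe set did not show this difference. Probe set 161545_r_at, whose suffix marks probes picked under relaxed rules, measured 26.0 and 27.8 in wildtype and 27.1 and 32.9 in HSL-null. These values overlap, and the log2 difference of 0.15 ± 0.15 was 0.011 without HSL-null array 2. It lay just above the filter, and near its level the SD between duplicates was 0.50 in wildtype and 0.48 in HSL-null. Sequences of the probes were not used here, so that the part of the transcript each probe set reads is not known, and the gene's call rests on 98488_at.

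Myh1, which encodes the type IIx chain, measured 2790 and 2398 in wildtype and 2704 and 2883 in HSL-null on 98308_at. The genotypes overlap, and the log2 difference was 0.11 ± 0.12. It was 0.0011 without wildtype array 2 and 0.22 without wildtype array 1, so that single arrays set its size. Near its level, log2 differences between duplicates had an SD of 0.098 in wildtype and 0.070 in HSL-null.

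Myh2, which encodes the type IIa chain of oxidative fast fibres, gave almost no signal. Probe set 92218_at measured 6.20 and 1.90 in wildtype and 2.60 and 1.60 in HSL-null. On 3 of the 4 arrays it lay at or below 5.70, the floor that was set at the 25th percentile of the table, so that no change could be read. Type IIa fibres are a main fibre type of mouse soleus, and the defining heavy chain of that type was thus at or just above the floor in both pools. Whether the probe set fails to report the transcript was not tested.

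The slow isoform Myh7 lay near the top of the scale in both pools. Probe set 98616_f_at, whose suffix marks probes shared within a sequence family, measured 5355 and 4889 in wildtype and 5267 and 5136 in HSL-null. The genotypes overlap, with a log2 difference of 0.024 ± 0.068 and array differences from -0.060 to 0.11. The values were 85.2% to 88.0% of the highest intensity on their arrays, close to the top of the scale. The sign was kept under 6 of 10 alternative settings, so that no direction is given. The dimmer probe set 161547_f_at measured 77.3 and 78.6 in wildtype and 117 and 69.8 in HSL-null. HSL-null array 1 alone was high, and the log2 difference of 0.21 ± 0.37 became -0.16 without it.

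Myh6, the alpha isoform, was dim and slightly lower in HSL-null. Probe set 101071_at measured 36.7 and 33.2 in wildtype and 31.5 and 29.5 in HSL-null. The genotypes did not overlap, but the smallest array difference was 1.05-fold and the log2 difference was -0.20 ± 0.086. Near this level the SD of differences between single duplicate arrays was 0.36 and 0.38. Genotype differences, which average 2 arrays each, had an SD of 0.29 among probe sets near this level, larger than the difference of Myh6. Of 9 cardiac markers on the array 5 were above the filter and 0 was separated, and Myl7 and Ryr2 were at or below the floor on all 4 arrays. The summed level of the list came to 1168 and 1177 in wildtype and 1192 and 1056 in HSL-null. Most of each sum was Actc1, at 961 and 967 in wildtype and 986 and 848 in HSL-null, so that the sums say little of the other markers.

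The developmental isoforms were dim as well. Myh3, the embryonic chain, measured 37.9 and 40.1 in wildtype and 31.3 and 30.4 in HSL-null on 160753_at. Both HSL-null arrays were below both wildtype arrays, by at least 1.21-fold, and the log2 difference was -0.34 ± 0.046, short of the 1.5-fold rule. The SD of differences between single duplicate arrays near this level was 0.35 and 0.33. Genotype differences, which average 2 arrays each, had an SD of 0.24 among probe sets near this level. Myh8, the perinatal chain, measured 31.8 and 15.9 in wildtype and 23.5 and 19.5 in HSL-null on 160243_r_at, where the wildtype arrays spanned the HSL-null ones. Its other probe set, 162374_r_at, measured 4.70 and 4.50 in wildtype and 1.10 and 0.600 in HSL-null, at or below the floor on 4 of 4 arrays. Among markers of regenerating or denervated fibres 5 of 9 were above the filter. Of these 5, 0 was separated and 4 lay above 0, against 49.5% of all probe sets above 0. The arrays did not overlap for Gadd45a, a growth arrest gene induced on denervation, at 0.31 ± 0.093, nor for Chrna1, an acetylcholine receptor subunit, at -0.22 ± 0.090. That is 1 of 5 each way, near the shares of all probe sets (19.5% higher and 21.1% lower). For Myog, a myogenic factor that marks differentiating and denervated fibres, the wildtype mean was 75.9 ± 4.95 (SD) and the HSL-null mean 82.5 ± 18.8.

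**Figure D3:**
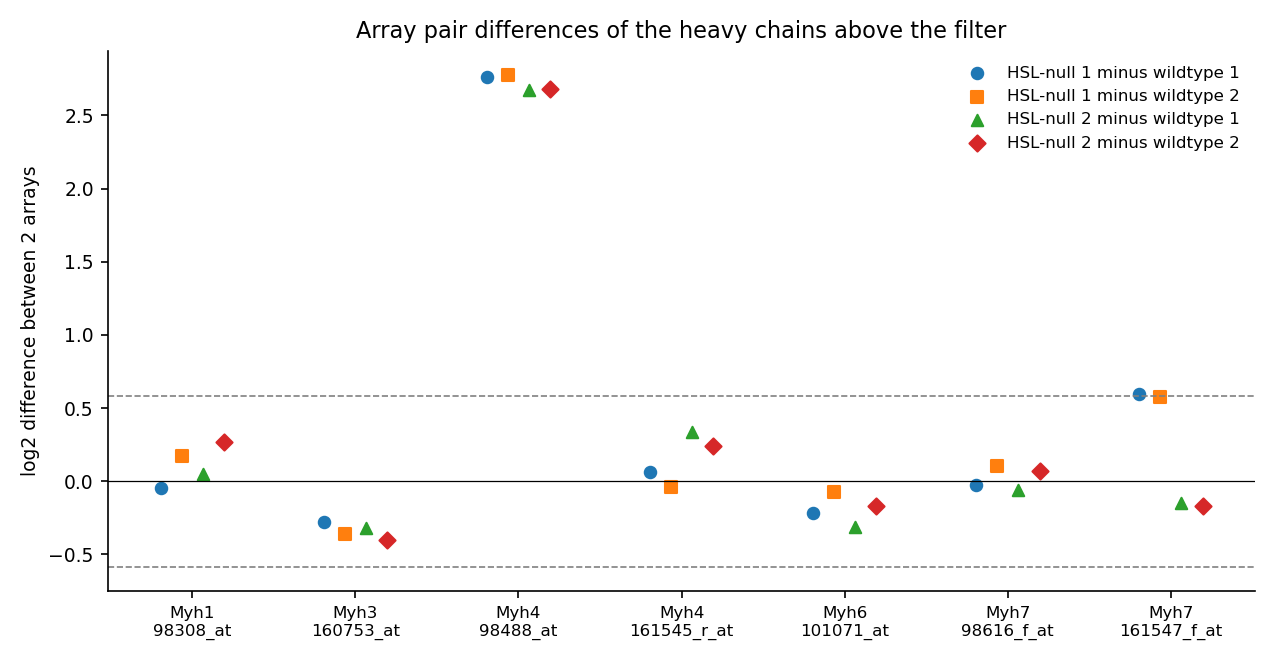
Differences of log2 intensity between single HSL-null and wildtype arrays (y axis; 4 array pairs per probe set) for the 7 heavy chain probe sets above the filter. Dashed lines are 1.5-fold in either direction. The Myh4 probe set 98488_at lies between 2.67 and 2.77, and the other members lie on both sides of 0 or short of the lines on at least 1 pair.

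The difference of Myh4 was also set against those of the other heavy chains on the same arrays. The log2 difference of Myh4 exceeded that of Myh7 by 2.70 ± 0.067 (SE of duplicates), with array pairs from 2.61 to 2.79. It exceeded that of Myh6 by 2.92 ± 0.067 and that of Myh1 by 2.61 ± 0.14. Between Myh1 and Myh7, by contrast, the excess was 0.087 ± 0.077, and its array pairs ran from -0.021 to 0.19. Since Myh7 lies near the top of the scale and Myh6 near its dim end, neither need carry a factor common to an array in full, and these differences are descriptions.

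**Figure D4:**
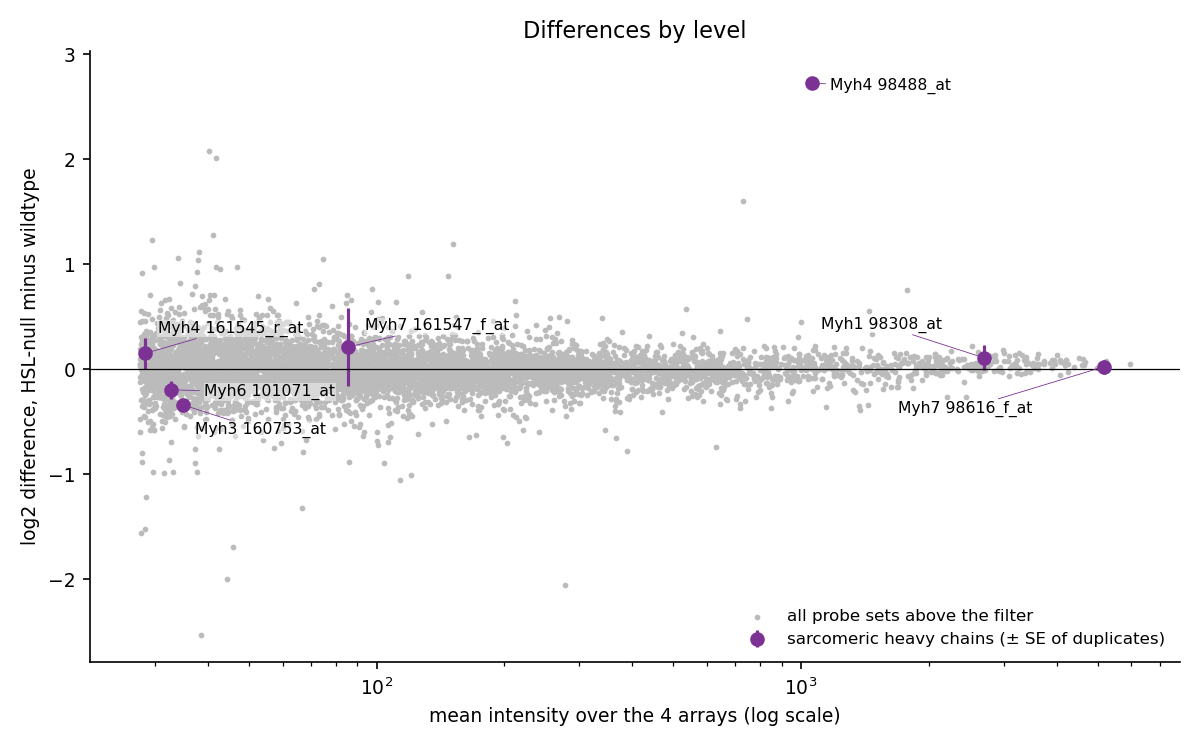
Log2 difference, HSL-null minus wildtype (y axis), against mean intensity (x axis, log scale) for 6208 probe sets (grey) and the 7 sarcomeric heavy chain probe sets above the filter (purple, with SE of duplicates). Myh4 98488_at is the highest point, at 2.72, and the other heavy chains lie within the cloud at their level.

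Heavy chains outside the sarcomere, which drive smooth muscle contraction and cell shape, had 0 separated probe sets above the filter. Myh11, the smooth muscle chain, measured 76.9 and 83.1 in wildtype and 51.3 and 55.1 in HSL-null, a log2 difference of -0.59 ± 0.076 with a smallest array difference of 1.40-fold. Without wildtype array 1 it was -0.64 and met the fold rule. Of the other smooth muscle markers above the filter, Smtn, smoothelin, differed by -0.090 ± 0.17, Acta2, smooth muscle actin, by 0.040 ± 0.047 and Tagln, transgelin, by 0.12 ± 0.078. Myh14, a nonmuscle chain, measured 344 and 299 in wildtype and 226 and 245 in HSL-null, a log2 difference of -0.45 ± 0.12. Myh9, the nonmuscle IIA chain, differed by 0.12 ± 0.076 on its brighter probe set. Myh10, the nonmuscle IIB chain, was below the filter, at 14.7 and 9.10 in wildtype and 5.30 and 5.90 in HSL-null, and although these values met the fold rule, the lowest of them lay below the floor.

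Genes beside the members on the chromosomes did not follow Myh4. Of the 5 protein-coding genes on each side of Myh4, 7 of 10 were matched to a probe set, 3 were above the filter and 0 was separated. Besides Myh1 and Myh3, given above, the gene above the filter was Adprm, an ADP-ribose pyrophosphatase, at 0.017 ± 0.10. Around the Myh6 and Myh7 pair 5 of 10 were matched, 4 were above the filter and 0 was separated. The 4 were Pabpn1, a nuclear poly(A)-binding protein (0.054 ± 0.082), Slc22a17 (0.024 ± 0.22), Efs (0.17 ± 0.14) and Ngdn (0.0095 ± 0.16).

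Few genes came near the profile of Myh4 over the 4 arrays. Likeness was measured as the Euclidean distance between log2 values, each probe set centred on its own mean, over 6207 other probe sets. The nearest named genes were Ift46 at a distance of 0.72, H2-M10.1 at 0.79 and Actn3 at 1.13, and 0 probe sets lay within 0.2. Ift46 (15.5 ± 3.11 in wildtype and 65.0 ± 9.62 in HSL-null) and H2-M10.1 (16.6 ± 3.39 and 66.9 ± 10.3) were dim, and Actn3 was bright. The wildtype means of Ift46 and H2-M10.1 lay below the filter, so that both passed it through their HSL-null means. Myh7 had 2568 probe sets within 0.2, the nearest being Fignl1, Lamb1 and Eif3j1, and Myh6 had 1132, the nearest being Gusb, Atf6 and Shc1. The distance was not scaled by the size of a difference. Myh4 lay 2.72 from its own mean, against 0.23 for Myh6 and 0.099 for Myh7. Its difference was the largest of all probe sets, so that its lack of close neighbours was largely set by that size. The counts within 0.2 thus do not compare how widely the 3 profiles are shared. These distances describe 4 arrays of 2 pools.

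The light chains, which bind the neck of the heavy chain and tune its motion, showed no separated gene. Myl1, Myl2 and Myl3 lay high on the scale, at wildtype means of 3988, 4119 and 4961, where a change need not show in full. Of the fast light chains on the array, Myl1 had a wildtype mean of 3988 ± 186 (SD, n = 2 arrays) and an HSL-null mean of 4197 ± 145, a log2 difference of 0.074 ± 0.059. The phosphorylatable fast chain Mylpf measured 376 ± 84.7 and 307 ± 16.2, and its difference was -0.27 ± 0.24. Of 5 slow and atrial light chain genes above the filter 0 was separated and 3 lay above 0 (2 with median centring, quantile normalization or loess), with a median of 0.016. The brightest were Myl3 (0.016 ± 0.053) and Myl2 (0.044 ± 0.071), the light chains of slow and ventricular fibres. Of 3 nonmuscle and smooth muscle light chain genes 0 was separated, with Mylk, myosin light chain kinase, at -0.0066 ± 0.076 and Myl12b at -0.17 ± 0.17.

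Thick filament and M-band partners, which tie myosin rods together, also had 0 separated genes among 6. Their median was -0.036, with 3 above 0 (1 with median centring). Myom1, myomesin of the M-band, had means of 1747 ± 5.59 (SD) in wildtype and 1630 ± 45.2 in HSL-null and a log2 difference of -0.10 ± 0.028, and Ckm, muscle creatine kinase, differed by 0.035 ± 0.039. The lowest was Mybph, myosin-binding protein H, at 37.2 ± 2.40 and 26.3 ± 1.41, named after its values were seen. Of 7 genes of myosin folding and turnover 0 was separated. The median was -0.092, but 0.017 without wildtype array 1. The brightest were Hspa8, a constitutive chaperone (-0.095 ± 0.17), and Smyd1, a myosin-binding methyltransferase of muscle (0.083 ± 0.038).

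Genes known to regulate fibre type had 0 separated members among the 30 above the filter, of 41 on the array. Of the 30, 15 lay above 0 and 15 below, with a median of -0.0028. The arrays did not overlap for 5 that were higher and 6 that were lower, near the shares of all probe sets (19.5% and 21.1%). The brightest were Nfix, a nuclear factor I gene that represses slow genes (-0.17 ± 0.12 on its brightest probe set), and Cnbp, a zinc finger nucleic acid-binding protein (-0.0061 ± 0.079). A second, dimmer Nfix probe set went the other way, at 0.66 ± 0.075, with no overlap of arrays and just short of the fold rule, which it met without HSL-null array 1 (0.74) or wildtype array 1 (0.67). Some genes of both directions were named after their values were seen. Lower were Sox6, which represses slow genes in fast fibres, at -0.27 ± 0.025, and Rcan1, a calcineurin target, at -0.18 ± 0.014. Tbx15, a regulator of glycolytic fibres, overlapped at -0.15 ± 0.16 on its brightest probe set. Its other probe sets above the filter were lower with no overlap, at -0.095 ± 0.0088 and -0.14 ± 0.094. The 5 that were higher with no overlap were Rxrg (0.26 ± 0.21), Nfatc2 (0.25 ± 0.11), Ppp3r1 (0.17 ± 0.045), Nfatc3 (0.070 ± 0.033) and Mef2d (0.040 ± 0.027). Mef2c differed by 0.046 ± 0.052 on its brightest probe set and by 0.24 ± 0.071, 0.34 ± 0.065 and 0.26 ± 0.15 on the other 3. Ppargc1a, which favours oxidative fibres, was below the filter, at 10.1 ± 1.06 in wildtype and 11.4 ± 2.40 in HSL-null.

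Among the fast fibre genes, those of the Z-disc and calcium buffering held separated genes beside Myh4 and those of the thin filament did not. Of 11 genes of fast fibre calcium handling, Z-disc and metabolism 2 were separated higher and 0 lower, against 0.226% of all probe sets each way. The list was chosen with earlier results of these data known, so that setting its count beside that share is a description and no test. All 11 differences were above 0, but 10 were after median centring and 9 after quantile normalization, and 49.5% of all probe sets were above 0. Their median was 0.14. For Actn3, alpha-actinin of fast Z-discs, the wildtype mean was 361 ± 34.5 (SD, n = 2 arrays) and the HSL-null mean 1097 ± 26.5. For Pvalb, the fast fibre calcium buffer, these were 1320 ± 45.3 and 2227 ± 38.6. Both have a second probe set above the filter, and it was separated higher too, at 0.89 ± 0.20 for Actn3 and 1.19 ± 0.072 for Pvalb. Without HSL-null array 2 the brighter probe sets stood at 1.63 for Actn3 and 0.77 for Pvalb, and the dimmer at 0.71 and 1.21, all still separated. Of the fast thin filament genes Tnnt3, Tnni2, Tnnc2 and Tpm1 none was separated, and their median was 0.060 (-0.014 without wildtype array 2). Tnni2, fast troponin I, measured 250 ± 6.79 and 263 ± 9.48, a level far from the top of the scale. Whether its probe set follows a change of the transcript was not tested. Tnnt3, by contrast, lay high on the scale, with a wildtype mean of 4124, where a change need not show in full.

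The slow counterparts had no separated gene. Of 4 slow thin filament genes 0 was separated, with a median of 0.079 (0.0099 with quantile normalization). Tnnt1, slow troponin T, differed by 0.048 ± 0.062 and Tnni1, slow troponin I, by 0.069 ± 0.034. Of 10 slow fibre calcium, Z-disc and oxygen genes 0 was separated and 6 lay above 0 (4 with quantile normalization). The brightest were Mb, myoglobin, at 0.039 ± 0.051, and Fhl1, a LIM protein of oxidative fibres, at 0.058 ± 0.017. The arrays did not overlap for 2 of these 10 that were higher and 2 that were lower, against 19.5% and 21.1% of all probe sets. The higher were Fhl1 and Fabp3 (0.059 ± 0.053). The lower were Csrp3, muscle LIM protein of the Z-disc (-0.36 ± 0.13), and Ankrd2, a stretch-responsive ankyrin repeat protein (-0.26 ± 0.043). Of the 4 slow thin filament genes, by their brightest probe sets, 3 were higher with no overlap and 0 lower, against the same 19.5% and 21.1%. A second bright Tnnt1 probe set went the other way, at -0.060 ± 0.042 with no overlap. Actn2, the alpha-actinin of all fibres, overlapped at -0.52 ± 0.72, but was -1.24 and met the fold rule without HSL-null array 1. Fibre genes at high intensity, slow or fast, share the limit given for Myh7.

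**Figure D5:**
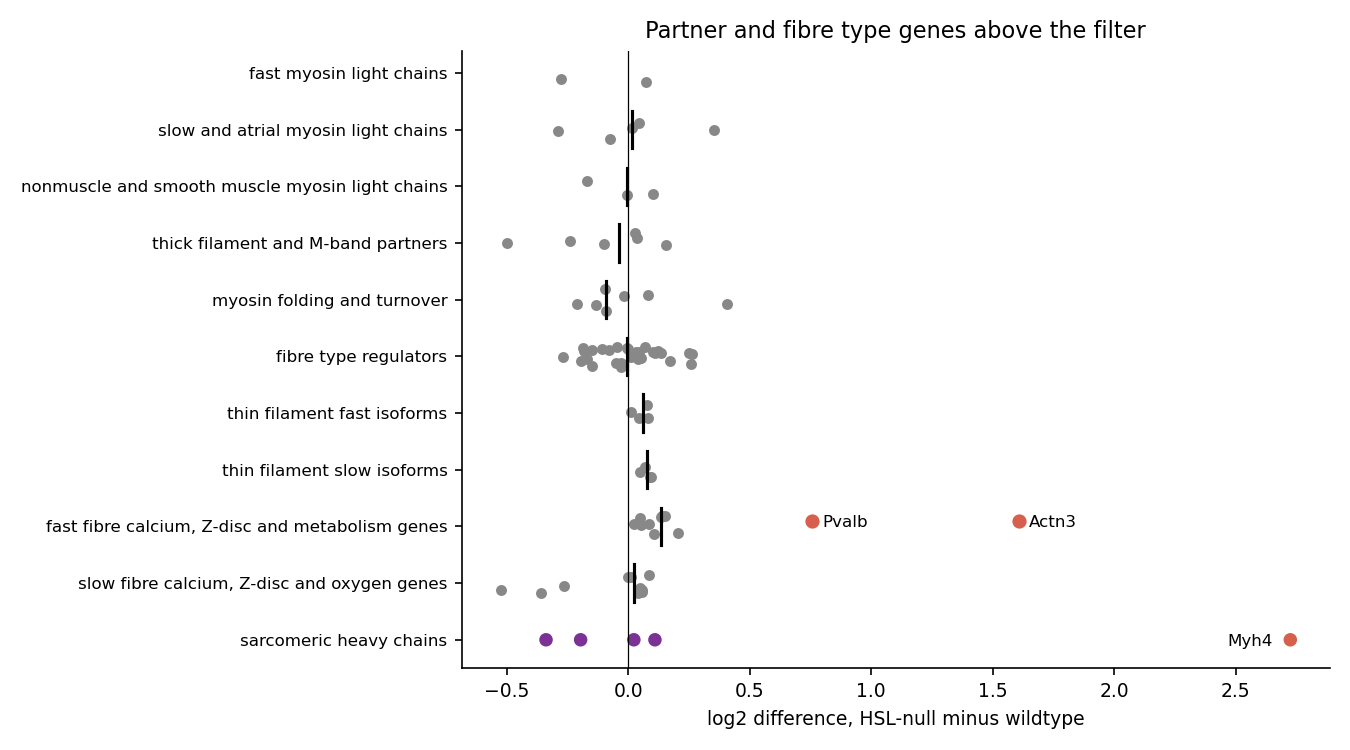
Log2 difference, HSL-null minus wildtype (x axis), of each gene above the filter in 10 lists of partner and fibre type genes and of the sarcomeric heavy chains by their brightest probe set (bottom row). Points are genes, black bars are medians of lists of at least 3, and red points are separated genes. Myh4, Actn3 and Pvalb stand apart from the rest.

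Markers of other cells moved with the genotypes in some cases, beside the higher Myh4. The marker lists too were chosen with earlier results known, so that their counts are descriptions. Of all probe sets 49.5% lay above 0. Of 8 fibroblast and tendon markers 7 were higher in HSL-null with no overlap of arrays, against 19.5% of all probe sets, 0 was separated, and the summed level came to 4517 and 4536 in wildtype against 5201 and 5178 in HSL-null. Of 5 white adipocyte markers above the filter 4 lay below 0 and 1, Adipoq, was separated lower (-1.06 with all arrays and without HSL-null array 2), against 0.226% of all probe sets. Without Car3, which slow fibres express as well, the adipocyte sum came to 559 and 547 in wildtype against 411 and 405 in HSL-null, and Cidec was at or below the floor on all arrays. These sums include Adipoq, at means of 154 in wildtype and 73.8 in HSL-null. Cebpa (-0.35 ± 0.092) and Fabp4 (-0.18 ± 0.11) were lower with no overlap, and Lep (-0.10 ± 0.21) overlapped. Of 5 endothelial markers 5 lay below 0 (4 with quantile normalization or loess), with sums of 700 and 719 in wildtype and 668 and 684 in HSL-null. Of 4 smooth muscle markers above the filter 0 was separated, with sums of 586 and 642 in wildtype and 593 and 578 in HSL-null. Nerve and Schwann cell sums overlapped, at 298 and 268 in wildtype and 279 and 303 in HSL-null, as did macrophage sums, at 547 and 580 against 567 and 560. Over the fibre markers themselves, the sums of the fast list were 29213 and 28031 in wildtype and 32307 and 31158 in HSL-null, and those of the slow list overlapped, at 43831 and 42115 against 44711 and 42735. The fast sums include Actn3, at means of 361 in wildtype and 1097 in HSL-null, and Pvalb, at 1320 and 2227. They thus say little of the other fast markers, of which 12 above the filter were not separated. The beta-actin ratio was also higher in the HSL-null pool. The part of these in the Myh4 difference was not tested.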

How the data were processed

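The deposited table holds 1 linear intensity per probe set and array, already scaled by the authors as the equal trimmed means of the arrays show; which software and background correction made them is not given in the sources used here. Gene names come from the platform annotation, and symbols were updated by gene ID in a RefSeq table (10839 of 10855 matched). The 66 control probe sets were left out. Values under 5.70, the 25th percentile, were raised to it before log2 was taken. Probe sets with a mean at or above 27.7 were kept (6208). Arrays of a genotype are technical duplicates of 1 pool, and no p-value was computed. Separation required 4 of 4 array differences of one sign and at least 1.5-fold.

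Named were all members, the separated genes of each list (at most 4, or the 2 brightest where none was separated), the other heavy chains, neighbouring genes and the 3 nearest profiles. Other genes were named after their values were seen. A gene in a list is its brightest probe set. The members, the 10 gene lists, the 10 marker lists and the motifs were chosen with earlier results of these data known. Alternatives changed the floor, the filter, the fold threshold and the choice among a gene's probe sets, left out each array, blocked on the replicate number, or rescaled by median centring, quantile normalization or cyclic loess (R 4.3.3 with limma 3.58.1). Other computations used Python 3.11.15, numpy 2.4.6, pandas 2.3.3 and matplotlib 3.10.9. The number of arrays limits the precision.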

Additional observations from a re-analysis of the deposited data

How the results depend on the processing

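The Myh4 probe set 98488_at was separated higher under all 10 alternatives run for it, with log2 differences from 2.68 to 2.77, and its excess over Myh7 (2.64 to 2.76) and Myh6 (2.85 to 2.99) kept its sign under 7 of 7. No other member above the filter was separated under any of its 10 alternatives, and Myh1, Myh3 and Myh6 kept their sign under 10 of 10. The value of Myh2, below the filter, was set by the floor: -0.71 with the floor at the 10th percentile, 0.00 at the 50th, and -0.12 to 0.00 with 1 array left out. The Myh8 probe set 162374_r_at, also below the filter, was 0.00 as reported but -1.44, and separated lower, with the floor at the 10th percentile.

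The count of separated probe sets (28, with 14 higher and 14 lower) followed the filter and the threshold. It was 175 (120 higher, 55 lower) with no filter, 10 (5 and 5) with the filter at the 75th percentile, 132 (74 and 58) at a laxer fold threshold and 14 (6 and 8) at 2-fold. With 1 array left out only 2 differences are asked for, and it was 82 to 109 (29 to 65 higher, 36 to 54 lower). Under the 3 scalings and 2 floors it was 26 to 29. The replicate numbers, which mark technical duplicates, do not pair the arrays: deviations of same-numbered arrays correlated at -0.086 across probe sets, and with the replicate block the count was 35 (18 higher, 17 lower), with the log2 difference of Myh4 unchanged at 2.72 by construction. Dim members are limited by signal over background: near Myh3, Myh6 and the second Myh4 probe set, duplicates differed with an SD of 0.33 to 0.50.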
